A study of Homo sapiens with 8 samples.

Results

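Bidirectional promoters are the stretches of DNA between pairs of genes that start back to back on opposite strands, so that transcription leaves the shared stretch in both directions. Here a pair was formed by protein-coding genes of GENCODE release 44 (hg19 coordinates) on opposite strands, with the 5′ end of the minus-strand gene to the left of that of the plus-strand gene and at most 1 kb apart. On the autosomes and chromosome X, 883 pairs met this rule, of 19278 protein-coding promoter regions in all. They held 1703 genes and fell into 821 separate loci, because some genes had more than 1 partner and 79 pairs contained an annotated read-through gene. The region of a pair reached from 1 kb left to 1 kb right of the 5′ ends. It was compared with 16572 single promoters, each a 2 kb window around a 5′ end with no other protein-coding 5′ end within 1 kb. The remaining 1823 genes had a protein-coding neighbor within 1 kb in another arrangement, such as overlapping 5′ ends.

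The marks were mapped by ChIP-seq in HL-60, a human promyelocytic leukemia line that differentiates towards granulocytes when given all-trans retinoic acid (ATRA). Cells received 1 µM ATRA or an equal amount of its solvent, ethanol (control), for 4 days, and each condition had 2 libraries for H3K4me3 and 2 for H3K27ac, 8 in all. All groups shared the line, medium and crosslinking, and they represent this single leukemia line rather than normal promyelocytes. The sources used here do not say for ChIP-seq whether replicates came from separate cultures, so each p-value measures only the spread between libraries.

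H3K4me3, trimethylation of lysine 4 on histone H3, marks nucleosomes around active and poised gene starts. H3K27ac, acetylation of lysine 27, marks active promoters and enhancers. Promoters of divergent gene pairs are often rich in CpG dinucleotides and lack a TATA box, and many of their genes serve housekeeping functions such as DNA repair, mitochondrial translation and chromosome packaging.

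The deposited peaks carried no read counts, so sequencing depth was unknown. Peaks numbered 13241 to 16487 in the H3K4me3 libraries and 15457 to 39332 in the H3K27ac libraries. Control replicate 1 stood apart among the H3K27ac libraries, with 15457 peaks over 28.8 Mb against 54.0 to 86.1 Mb in the others, and control replicate 2 among the H3K4me3 libraries, with 47.7 Mb against 59.8 to 63.2 Mb. Of 10 myeloid marker genes, 7 had an H3K4me3 peak at the 5′ end in all 4 libraries and 2, ELANE and AZU1, had none. Of 10 markers of other cell types, 9 had no H3K4me3 peak in any library and the other, COL1A1, had a peak in 2. An H3K27ac peak was nevertheless found in at least 1 library at 3 of these 10 genes.

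The 5′ ends of a pair lay close together, with a median distance of 131 bp (quartiles 69 and 247, range 1 to 995), and 714 of the 883 pairs were at most 300 bp apart. The sequences between the 5′ ends of 8 pairs (GRCh37, plus strand) are shown because these pairs carry the results below and differ in the short promoter motifs they hold. PPAT/PAICS, TCP1/MRPL18 and U2AF1L4/PSENEN are textbook pairs with both marks in all 8 libraries. AKR7A2/SLC66A1 and TECPR1/BRI3 had H3K27ac peaks only in the ATRA libraries. CFAP210/PHOSPHO2 had wider H3K27ac peaks in ATRA, H2BC12/H2AC12 is among the pairs with the widest H3K27ac, and PLPP3/PRKAA2 had no peak. Capitals mark exact matches, on either strand, to the letters of 6 motifs. The SP1 motif, bound by zinc finger factors at many housekeeping promoters, was searched as GGGCGG. The motif of the trimeric factor NF-Y was searched as CCAAT and that of the ETS family of transcription factors as CCGGAAGT. The respiratory factor NRF1 was searched with its core CGCATGCG and the TATA box as TATAAA. The letters AAGATGGCG stood for the zinc finger factor YY1.
PPAT/PAICS at chr4:57301782-57301906, 125 bases: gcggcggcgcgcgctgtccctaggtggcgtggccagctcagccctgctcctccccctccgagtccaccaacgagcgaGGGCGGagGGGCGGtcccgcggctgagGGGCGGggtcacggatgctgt
TCP1/MRPL18 at chr6:160210736-160210843, 108 bases: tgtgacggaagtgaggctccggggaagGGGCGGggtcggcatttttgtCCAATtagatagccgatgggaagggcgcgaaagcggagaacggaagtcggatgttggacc
U2AF1L4/PSENEN at chr19:36236347-36236500, 154 bases: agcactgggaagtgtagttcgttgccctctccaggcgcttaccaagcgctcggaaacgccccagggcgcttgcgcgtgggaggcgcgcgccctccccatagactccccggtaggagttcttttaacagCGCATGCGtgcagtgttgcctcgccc
AKR7A2/SLC66A1 at chr1:19638639-19638819, 181 bases: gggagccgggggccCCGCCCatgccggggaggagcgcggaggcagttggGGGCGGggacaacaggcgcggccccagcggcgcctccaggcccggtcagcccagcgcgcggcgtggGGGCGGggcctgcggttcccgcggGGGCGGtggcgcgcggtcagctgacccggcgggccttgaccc
TECPR1/BRI3 at chr7:97881545-97881690, 146 bases: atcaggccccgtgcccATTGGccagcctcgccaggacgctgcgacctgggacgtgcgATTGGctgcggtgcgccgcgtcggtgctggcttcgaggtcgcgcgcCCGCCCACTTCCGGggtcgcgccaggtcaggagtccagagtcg
CFAP210/PHOSPHO2 at chr2:170550916-170550963, 48 bases: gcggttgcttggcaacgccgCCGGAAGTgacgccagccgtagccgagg
H2BC12/H2AC12 at chr6:27114635-27114884, 250 bases: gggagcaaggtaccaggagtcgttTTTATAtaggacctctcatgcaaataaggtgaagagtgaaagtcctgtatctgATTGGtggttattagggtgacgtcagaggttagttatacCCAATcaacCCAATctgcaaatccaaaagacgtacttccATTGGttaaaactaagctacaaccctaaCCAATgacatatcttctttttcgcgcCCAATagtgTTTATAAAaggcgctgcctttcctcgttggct
PLPP3/PRKAA2 at chr1:57110975-57110986, 12 bases: gcagggcccgct

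GGGCGG letters occurred 3 times between PPAT and PAICS and 4 times between AKR7A2 and SLC66A1. H2BC12/H2AC12, by contrast, held CCAAT or its reverse complement 6 times and TATAAA letters near both ends. The ETS letters stood in the gaps of CFAP210/PHOSPHO2 and TECPR1/BRI3, and the NRF1 letters in that of U2AF1L4/PSENEN.

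Across all members, sequence set pairs apart from single promoters. In the 2 kb at the center of the region, 625 of 883 pairs (70.8%) were CpG-rich, defined as at least 50% GC and an observed-to-expected CpG ratio of at least 0.6, against 43.3% of single promoters and 46.0% of all promoter regions. Median GC was 56.6% at pairs and 54.6% at single promoters, and the median CpG ratio was 0.71 and 0.58. In 300-base windows centered on the pair midpoint or the 5′ end, read on both strands, CCGGAAGT was found at 14.3% of pairs, 3.91% of single promoters and 4.79% of all promoter regions. CGCATGCG was found at 7.13%, 1.86% and 2.25%, in the same order. GGGCGG was present at 70.9% of pairs and 51.6% of single promoters (53.3% of all), CCAAT at 40.0% and 33.4% (33.5% of all), and AAGATGGCG at 3.96% and 2.06% (2.26% of all). TATAAA was the rarer way round, at 5.10% of pairs, 10.1% of single promoters and 9.48% of all regions. Among CpG-rich regions alone, CCGGAAGT stood at 12.5% of pairs and 5.45% of single promoters. These matches describe letters in a window, not bound factors, and windows of pairs lie around a midpoint rather than a 5′ end.

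To ask how often the marks sit at these promoters, each region was scored for a peak overlapping it by at least 1 bp. H3K4me3 peaks touched 89.4% ± 0.31 of pairs (mean ± SD, n = 4 libraries) and 46.0% ± 1.00 of single promoters. By library, pairs scored 89.6% and 89.2% in ATRA and 89.8% and 89.1% in control. H3K27ac peaks touched 76.4% ± 4.97 of pairs and 36.2% ± 4.23 of single promoters. The 4 libraries gave 78.6% and 81.5% of pairs in ATRA and 69.9% and 75.8% in control. In every library the share at pairs was thus far above that at single promoters, by 43.0 to 44.5 percentage points for H3K4me3 and 39.3 to 41.5 for H3K27ac. A pair region holds 2 gene starts and a single region 1, so a peak at either gene scores the pair. The part of this in the difference was not tested. Pair regions are also longer, but with 2 kb at the pair midpoint the mean differences were 43.4 and 40.2 points. Over the 8 libraries the mean difference was 41.9 percentage points (exact two-sided sign-flip permutation test, p = 0.0078, the smallest that 8 libraries allow). The 4 libraries of either mark alone cannot go below p = 0.13 in this exact test, which is what each gave. Adjusted over the 12 tests of pairs against single promoters (Benjamini-Hochberg), the exact p over 8 libraries was 0.031. All libraries were read over the same regions, so the test speaks of these libraries and not of promoters as a sample. With only peaks of a deposited -log10 q of at least 5, which kept 12.8% to 16.9% of H3K27ac peaks in a library, the H3K27ac difference was 6.16 points, and that of H3K4me3 was 42.9.

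CpG content moved with this difference. Within CpG-rich regions H3K4me3 was found at 93.5% ± 0.33 of 625 pairs and 69.8% ± 0.90 of 7170 single promoters, a difference of 23.7 percentage points. Outside them it was found at 79.7% ± 0.50 of 258 pairs and 27.9% ± 1.11 of 9402 single promoters, a difference of 51.8 points. For H3K27ac the differences were 27.1 points in CpG-rich and 45.1 points in the remaining regions. The difference held on both sides of the CpG limit, at a smaller size where CpG was high.

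A class that resembles the pairs is that of 1213 single promoters whose only neighbor within 1 kb is a divergent lncRNA gene, a gene for a long non-coding RNA. H3K4me3 peaks touched 74.5% ± 0.57 of them and H3K27ac peaks 60.1% ± 5.21, between the values of pairs and of all single promoters in each library. Of these lncRNA-partnered promoters 73.7% were CpG-rich, against 70.8% of pairs, and 8.99% held CCGGAAGT. The 1823 genes with a protein-coding neighbor in another arrangement also lay between pairs and single promoters. H3K4me3 peaks touched 75.8% ± 0.54 of them and H3K27ac peaks 64.2% ± 5.66. Of these 1823, 58.6% were CpG-rich and 8.23% held CCGGAAGT.

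**Figure D1:**
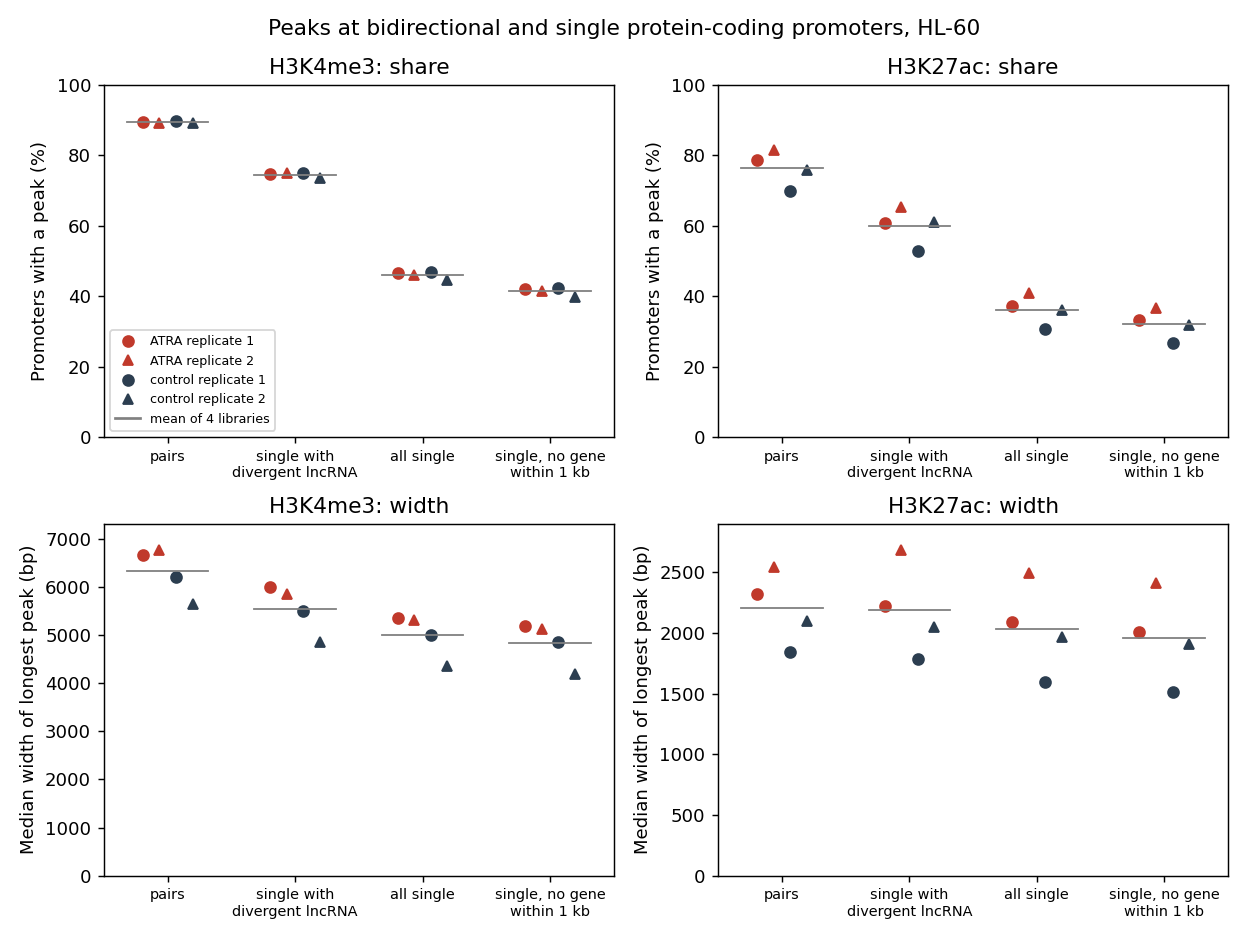
Share of promoters with a peak (top, %) and median width of the longest peak at promoters with one (bottom, bp) for H3K4me3 and H3K27ac; each point is a library and each gray line the mean of 4. Pairs lie above every single class in share in all 8 libraries, while H3K27ac widths of the classes lie close together.

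H3K4me3 was steadier over libraries than H3K27ac. Of 883 pairs, 785 (88.9%) had H3K4me3 in all 4 libraries, 88 (9.97%) in none and 10 (1.13%) in 1 to 3, the last against 3.69% of single promoters. For H3K27ac, 576 (65.2%) had a peak in all 4, 133 (15.1%) in none and 174 (19.7%) in 1 to 3, the last against 17.6% of single promoters. These are shares of all regions and not of marked ones, and 55.0% of single promoters had H3K27ac in none. Both marks were present in all 8 libraries at 575 pairs (65.1%), against 26.7% of single promoters. Neither mark was found in any library at 79 pairs (8.95%), against 47.8% of single promoters. H3K4me3 in all 4 libraries without H3K27ac in any was found at 46 pairs (5.21%) and at 5.14% of single promoters, as shares of all regions. Among regions with H3K4me3 in all 4 libraries it was 46 of 785 pairs and 852 of 7318 single promoters, a smaller part at pairs. A single pair, ALS2CL/TMIE, had H3K27ac in all 4 libraries and H3K4me3 in none.

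To ask whether the 2 genes lie under the same peak, the position of peaks on the 5′ ends was read. A single H3K4me3 peak covered both 5′ ends at 87.0% ± 1.16 of pairs (n = 4 libraries), that is at 775 and 763 pairs in ATRA and 779 and 757 in control. Only 6 to 18 pairs in a library had H3K4me3 over 1 of the ends alone. For H3K27ac a single peak covered both ends at 56.8% ± 7.21 of pairs, at 516 and 581 in ATRA and 430 and 479 in control. With only peaks of -log10 q of at least 5 this share was 8.41% for H3K27ac and 82.7% for H3K4me3. An H3K27ac peak over 1 end alone was seen at 30 to 42 pairs. In no library did separate peaks cover the 2 ends of a pair. The ends lay a median of 131 bp apart, against median H3K4me3 widths of 5638 to 6770 bp. Coverage of both ends by 1 H3K4me3 peak thus largely follows from having a peak. It does not show that the 2 genes are marked together. H3K27ac differed from H3K4me3 in a further state, a peak inside the region that covered neither end, at 100 to 148 pairs against 8 to 12 for H3K4me3. Of these H3K27ac cases, 88 to 131 in a library lay in the body of 1 gene only and 12 to 28 on both gene bodies with the 5′ ends left free.

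**Figure D2:**
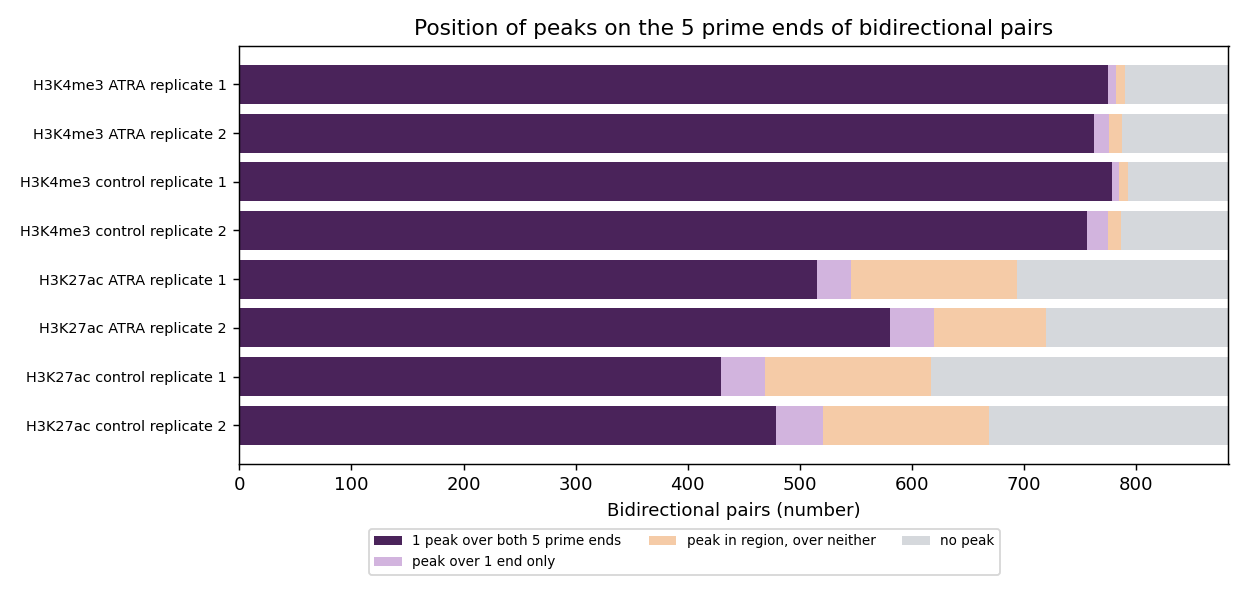
Number of the 883 pairs (horizontal axis) in each library by the position of peaks on the 5′ ends. One H3K4me3 peak lay over both ends at 757 to 779 pairs in each library, one H3K27ac peak at 430 to 581.

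At the H3K27ac libraries, 106 pairs had a peak over a single end in at least 1 library, but only 4 had it over the same single end in all 4, and 2 pairs changed from one end to the other between libraries. For H3K4me3 these counts were 28, 2 and 0. One-ended coverage was therefore rarely repeated across libraries.

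Peaks at pairs were also wider, clearly so for H3K4me3. The median of the longest H3K4me3 peak was 6672 and 6770 bp in ATRA and 6200 and 5638 bp in control, against 5350, 5308, 4992 and 4349 bp at single promoters in the same libraries. The ratio of medians was 1.24 to 1.30, a mean log2 ratio of 0.34 ± 0.03 (SD, n = 4). For H3K27ac the medians were 2323, 2546, 1847 and 2103 bp at pairs against 2088, 2494, 1592 and 1966 bp at single promoters, a ratio of 1.02 to 1.16 and a mean log2 ratio of 0.12 ± 0.08. Over the 8 libraries the mean log2 ratio was 0.23 (exact two-sided sign-flip permutation test, p = 0.0078). The H3K27ac part of this was small: restricted to promoters with a peak in all 4 libraries of the mark, the H3K27ac log2 ratio fell to 0.05 (p = 0.5 by the same exact test), and the H3K4me3 value was 0.33 (p = 0.13). Promoters with a divergent lncRNA and the 1823 other genes had mean H3K4me3 medians of 5546 and 5596 bp. These lay between 6320 bp at pairs and 5000 bp at single promoters. Their mean H3K27ac medians, 2187 and 2106 bp, were near the 2205 bp of pairs. In ATRA replicate 2 alone they exceeded pairs, with 2686 and 2612 bp against 2546 bp. Counted as bases of the region under peaks instead, the log2 ratio of pairs over single promoters was 0.08 for H3K4me3 and 0.40 for H3K27ac. Most H3K4me3 peaks exceed the region, and pair regions are longer than single ones. The H3K4me3 value is thus capped by region length and says little about peak width.

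The shape of the peaks showed where the extra H3K4me3 width lay. Where a single peak covered both ends, it reached a median of 3124 ± 240 bp (mean ± SD of 4 library medians) into each gene. At single promoters the peak over the 5′ end reached 3316 ± 250 bp into the gene but 1625 ± 218 bp upstream. Into the gene, peaks at pairs were thus slightly shorter, by 168 to 210 bp in each library. The shorter side of a pair's peak was still 2547 ± 229 bp, which exceeded the upstream side of single promoters by 830 to 998 bp in each of the 4 libraries (exact sign-flip permutation test, p = 0.13, the smallest possible). Taking the shorter side makes this comparison conservative for pairs. At promoters with a divergent lncRNA the upstream side measured 2063 ± 231 bp, between the other classes.

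H3K27ac peaks were shorter than H3K4me3 peaks on each of these sides. They reached 1159 ± 105 bp into each gene of a pair, 1446 ± 151 bp into single genes and 974 ± 181 bp upstream of them. The shorter side at pairs was 866 ± 95 bp, and its difference from the single upstream side ran from -222 to 19 bp over libraries (p = 0.25 by the exact sign-flip permutation test). Because the shorter of 2 sides is taken, a value near or below 0 does not show equal sides. Over all gene sides of pairs, the medians were 1189 and 1282 bp in ATRA and 1030 and 1134 bp in control. The single upstream medians in the same libraries were lower, at 1032, 1169, 736 and 960 bp. Into the gene, H3K27ac peaks at pairs were 233 to 339 bp shorter than at single promoters. For both marks together this gene-side difference had the same sign in 8 of 8 libraries (exact sign-flip permutation test, p = 0.0078). Whole H3K27ac peaks over the 5′ ends were about equally wide in both classes, 2582 ± 260 bp at pairs and 2582 ± 374 bp at single promoters.

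The share of promoters under a peak by position gave the same picture. At 2 kb to either side of the pair midpoint, H3K4me3 covered 73.3% ± 4.02 and 73.1% ± 4.16 of pairs. Single promoters had 17.2% ± 3.75 at 2 kb upstream and 39.0% ± 2.17 at 2 kb downstream. H3K27ac covered 58.6% ± 7.43 of pairs at the midpoint and 60.0% ± 7.27 and 61.0% ± 5.52 at 500 bp to the left and right. Within libraries, the midpoint minus the mean of these flanks was -4.76 and 0.96 percentage points in ATRA replicates 1 and 2 and -3.17 and -0.79 in control replicates 1 and 2, so 3 of 4 libraries were lower at the center. At 2 kb H3K27ac covered 13.8% of pairs on either side.

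**Figure D3:**
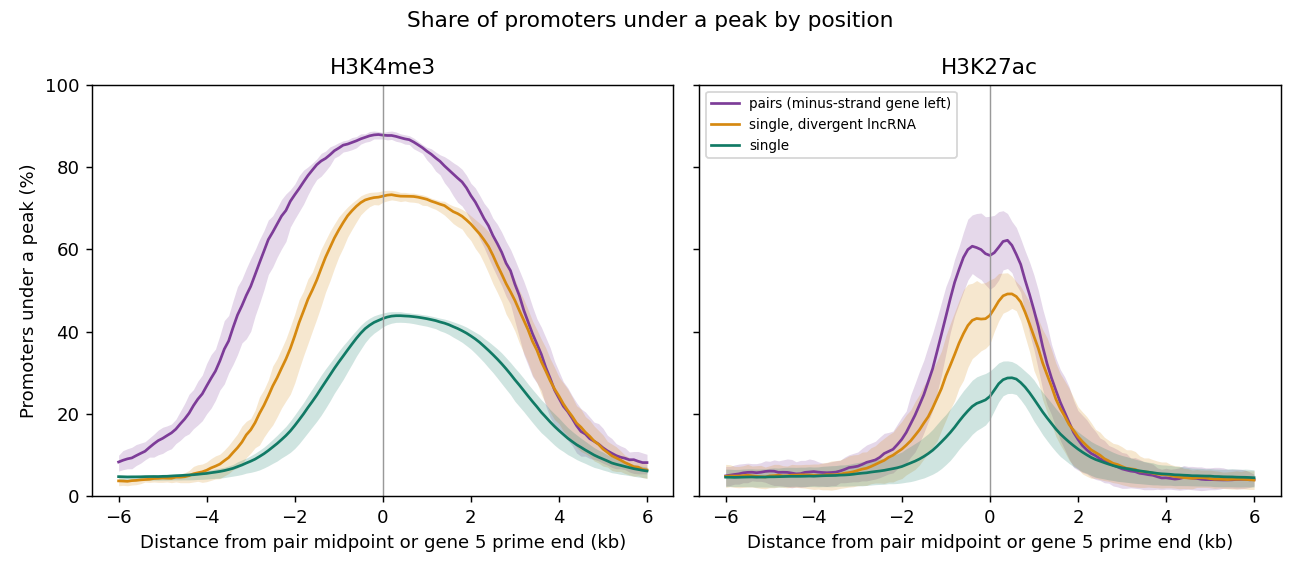
Share of promoters (%) under a peak by distance (kb) from the pair midpoint, with the minus-strand gene on the left, or from the 5′ end of single promoters with the gene on the right; lines are means of 4 libraries and bands their range. H3K4me3 at pairs is symmetric, with 73.3% and 73.1% of pairs covered at 2 kb to either side, whereas single promoters are covered more often downstream (39.0%) than upstream (17.2%).

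Symmetry of the class did not mean symmetry of each pair. The longer side of the H3K4me3 peak was more than 2-fold the shorter at 27.1% ± 2.99 of pairs and that of H3K27ac at 37.8% ± 2.84. Of 753 pairs with 1 H3K4me3 peak over both ends in all 4 libraries, 476 (63.2%) had the longer side on the same gene in every library, and of 349 such pairs for H3K27ac 159 (45.6%) did.

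The distance between the 5′ ends was the measure the rule fixed, and the marks varied along it. H3K4me3 touched 91.0% of 343 pairs at up to 100 bp, 90.5% of 371 above 100 and up to 300 bp, 87.5% of 108 above 300 and up to 600 bp and 77.9% of 61 above 600 and up to 1000 bp (means of 4 libraries). Each library's share in the last class, 77.0% to 78.7%, lay below every share in the others. A single H3K4me3 peak over both ends was seen at 89.2%, 88.6%, 83.1% and 72.1% of pairs in these classes. For H3K27ac the share with a single peak over both ends was 64.0%, 55.1%, 52.1% and 35.2%. Among pairs with any H3K27ac peak, 81.2% of the closest and 53.3% of the most distant had it over both ends. A longer stretch between the ends must be covered for this to be scored. The 82 divergent pairs above 1000 and up to 2000 bp, outside the rule, continued it with 67.4% for H3K4me3 and 61.0% for H3K27ac, and with a single peak over both ends at 50.9% and 26.2%. Width moved the other way for H3K4me3, with a mean of library medians of 6219 bp in the closest and 6896 bp in the most distant class. The same mean was 6981 bp at the 82 pairs outside the rule.

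**Figure D4:**
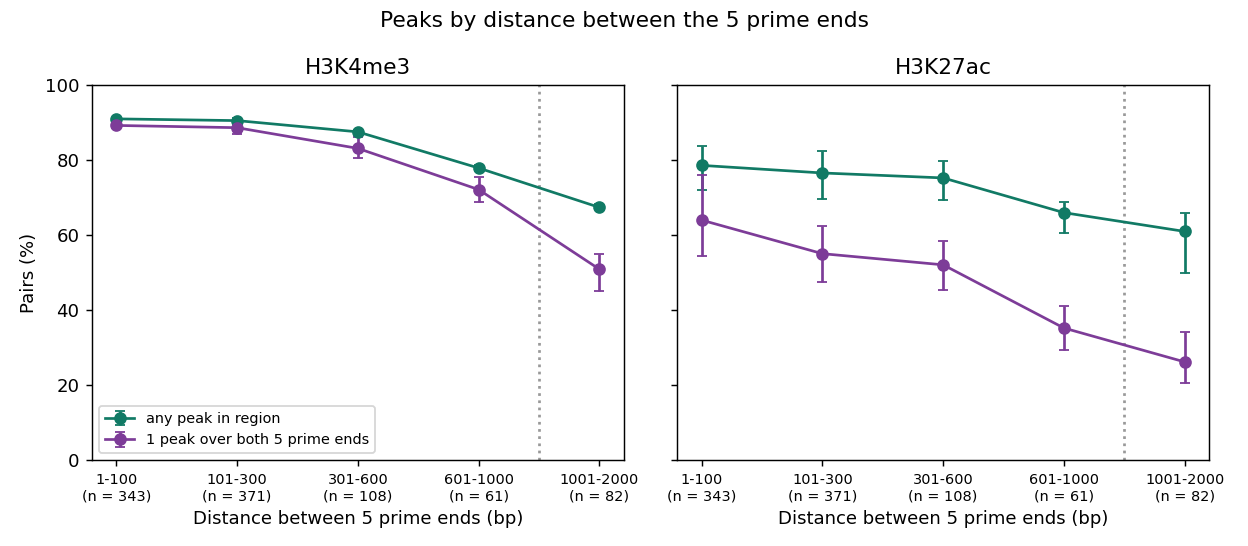
Share of pairs (%) with any peak in the region and with 1 peak over both 5′ ends, by distance between the ends (bp); points are means of 4 libraries, bars their range, and the dotted line marks the 1 kb limit. The share with 1 H3K27ac peak over both ends is 64.0% in the closest class and 35.2% above 600 bp within the limit.

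At the 1 kb limit itself, the 3 pairs just inside were PSMB1/TBP (995 bp), MS4A6A/MS4A4A (991 bp) and APBA3/MRPL54 (990 bp). PSMB1, a proteasome subunit, and TBP, the TATA-binding protein, lay at H3K4me3 peaks of 8290 to 8828 bp in all 4 libraries and APBA3/MRPL54 at peaks of 3791 to 4567 bp, and both pairs had H3K27ac in all 4. MS4A6A/MS4A4A, membrane proteins of myeloid cells, had no H3K4me3 peak, but H3K27ac peaks of 2986 bp in ATRA replicate 2 and 12015 bp in control replicate 2. Just outside, TXNDC12/BTF3L4 (1008 bp) and ENSG00000268790/TMEM38A (1024 bp) had both marks in all libraries, with H3K4me3 peaks of 8340 to 9256 bp and 4786 to 7448 bp.

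Pairs with particular motif letters differed in how often they were marked. All 63 pairs with CGCATGCG had H3K4me3 in every library, against 88.6% of the 820 without it. Pairs with CCGGAAGT had it at 97.0% (126 pairs, range 96.8% to 97.6%) against 88.2% without, and H3K27ac at 86.3% (77.8% to 90.5%) against 74.8% (68.6% to 80.1%). The 45 pairs with TATAAA had H3K4me3 at 80.0% against 89.9%, with medians 7176 and 6284 bp wide. These are descriptions over the same pairs in each library, and CpG content was not held equal.

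Textbook pairs carried the marks in nearly all libraries. Of 30 such pairs listed, 11 met the rule with the annotated outermost 5′ ends; the annotated 5′ ends of others overlap or lie further apart. All 11 had H3K4me3 in all 4 libraries and 10 had H3K27ac in all 4.

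PPAT/PAICS (chr4:57301781-57301907), whose genes encode enzymes of purine synthesis, had H3K4me3 peaks of 11091 and 11212 bp in ATRA and 11212 and 9450 bp in control. Its H3K27ac peaks were 2884 and 4461 bp in ATRA and 2674 and 3456 bp in control, and the groups overlapped for both marks. NPAT/ATM (chr11:108093365-108093771), a histone gene coactivator and the kinase that signals DNA breaks, had H3K4me3 peaks of 8984 and 8546 bp in ATRA and 7441 and 7451 bp in control. Its H3K27ac peaks measured 4266 and 5521 bp in ATRA and 3076 and 3935 bp in control, so both marks were wider in each ATRA than in each control library.

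TCP1/MRPL18, a chaperonin subunit and a mitochondrial ribosomal protein, had H3K4me3 of 8086 and 9584 bp in ATRA and 8225 and 7501 bp in control, which overlap, and H3K27ac of 2916 and 3273 bp in ATRA and 2644 and 1074 bp in control, which do not. PRKDC/MCM4, a DNA repair kinase and a subunit of the replicative helicase only 7 bp apart, had H3K4me3 of 6672 and 7887 bp in ATRA and 7621 and 7957 bp in control and H3K27ac of 2842 to 4386 bp. TMEM258/FEN1, the second a flap endonuclease of DNA replication and repair, had H3K4me3 of 5257 to 6151 bp and H3K27ac of 2321 to 4168 bp. PRKDC/MCM4 and TMEM258/FEN1 showed no separation of ATRA from control. SIRT3/PSMD13, a mitochondrial deacetylase and a proteasome subunit, and PDCD10/SERPINI1 had a single H3K27ac peak over both ends in 3 of the 4 libraries and not in control replicate 2.

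U2AF1L4/PSENEN, the second a subunit of gamma-secretase, had the widest H3K4me3 among the textbook pairs, at 16183 and 12317 bp in ATRA and 12741 and 11583 bp in control. PURG/WRN, the second a RecQ helicase, combined H3K4me3 of 5790 to 9102 bp with short H3K27ac peaks of 482 to 647 bp that covered both 5′ ends in no library. RAD51D/FNDC8, the first a recombination protein, was the exception, with H3K4me3 of 2787 to 4225 bp lying over at most 1 of its ends and no H3K27ac in any library.

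The widest H3K4me3 peaks at pairs lay at METTL26/MCRIP2, RHOF/SETD1B, MED22/RPL7A, RRP8/ILK and RECQL4/LRRC14, the 5 with the largest mean over the 4 libraries. METTL26/MCRIP2 had 20820 and 21464 bp in ATRA and 25621 and 21720 bp in control, so control was the wider. RHOF/SETD1B, the second an H3K4 methyltransferase, had 26002 and 16018 bp in ATRA and 26263 and 12207 bp in control, with the groups overlapping. Peaks of this length take in more than a promoter. Only RHOF/SETD1B among the 5 also had long H3K27ac peaks, of 7367 to 8855 bp, and RECQL4/LRRC14 had 988 and 331 bp in ATRA and none in control.

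The widest H3K27ac peaks lay at histone and blood-cell genes: H2BC11/H2AC11, H2AC15/H2BC15, H2BC12/H2AC12, NFKBID/HCST and NFE2/COPZ1. H2BC11/H2AC11 had 11447 and 23730 bp in ATRA and 9764 and 21930 bp in control. In both libraries of replicate 2 it shared its peak with H2BC12/H2AC12, which had 6387 and 2810 bp in the ATRA and control libraries of replicate 1. At these 2 pairs H3K27ac widths differed more between replicates than between same-numbered libraries of the conditions. H2AC15/H2BC15 had 11587 and 11809 bp in ATRA and 10990 and 22793 bp in control, so only control replicate 2 stood apart. NFKBID/HCST, an inhibitor of NF-kappaB and a signaling adaptor of immune receptors, had 18699 and 16352 bp in ATRA and 12481 and 6620 bp in control, each ATRA value above each control value. NFE2/COPZ1, the first an erythroid and megakaryocytic transcription factor, had 9972 to 13577 bp with no such separation.

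To ask what ATRA changed at these promoters, the 2 ATRA libraries were set against the 2 control libraries; 2 against 2 cannot go below p = 0.33 in an exact permutation test. For H3K4me3 the share of pairs with a peak differed by -0.06 percentage points (exact permutation test, p = 1), and by -0.40 to 0.28 on leaving out 1 library. For H3K27ac it was 7.25 points higher in ATRA (exact permutation test, p = 0.33), with 78.6% and 81.5% against 69.9% and 75.8%, so the groups did not overlap. At single promoters H3K27ac was higher as well, and the change at pairs exceeded that at single promoters by 1.67 points (exact permutation test, p = 0.33). Without control replicate 1, the library with the fewest H3K27ac peaks, the value at pairs was 4.30 points. Adjusted over the 8 tests of ATRA against control, the lowest exact p was 0.67.

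No pair gained or lost H3K4me3, where gained means a peak in both ATRA and no control library and lost the reverse, against 0.28% and 0.104% of all promoter regions. For H3K27ac 23 of 883 pairs (2.60%) were gained against 2.54% of all promoter regions, and 0 were lost against 0.28%. The gained share of pairs was thus near the background. With only peaks of -log10 q of at least 5, 14 pairs were gained and 9 lost, and with at least 500 bp of the region under peaks 4 were lost. Compared within replicate number (a replicate block), the mean count per number was 77 gained and 13 lost. With 1 library left out, fewer libraries have to meet the condition, and the gained H3K27ac count was 76 without control replicate 2, 42 without control replicate 1, 47 without ATRA replicate 1 and 31 without ATRA replicate 2. The lost count was then 1, 6, 7 and 8, in the same order. The background shares of 2.54% and 0.28% belong to the first counts only, and none is given for these other settings.

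The 8 gained pairs with the widest ATRA peaks were CIDEB/LTB4R, AKR7A2/SLC66A1, IFT20/TNFAIP1, THYN1/ACAD8, GDAP2/WDR3, TRADD/FBXL8, TECPR1/BRI3 and RNF25/STK36. At CIDEB/LTB4R (chr14:24780636-24780656), the second the leukotriene B4 receptor of neutrophils, H3K27ac peaks measured 6877 and 3292 bp in ATRA with none in control, and no library had H3K4me3. The other 7 had H3K4me3 in all 4 libraries. AKR7A2/SLC66A1, an aldehyde reductase and a lysosomal amino acid transporter, had H3K27ac of 3208 and 4968 bp in ATRA and none in control beside H3K4me3 of 5966 and 5557 bp in ATRA and 4581 and 2789 bp in control. IFT20/TNFAIP1, the first an intraflagellar transport protein, had H3K27ac of 4153 and 3802 bp in ATRA and none in control. TRADD/FBXL8, the first the adaptor of TNF receptor 1, had 1066 and 2627 bp in ATRA and none in control.

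Peaks were wider in the ATRA libraries at pairs and at single promoters, in each ATRA above each control library. The median H3K4me3 width at pairs was higher by 0.18 on the log2 scale (exact permutation test, p = 0.33), with 6672 and 6770 bp against 6200 and 5638 bp, and this change minus that at single promoters was -0.01 (p = 1 by the same exact test). Without control replicate 2, the library with the least H3K4me3 peak length, the change at pairs was 0.12, and without control replicate 1 it was 0.25. Relative to single promoters, the value changed sign without control replicate 2 (0.022) and without ATRA replicate 1 (0.0075). The median H3K27ac width was higher by 0.30 (exact permutation test, p = 0.33), and its change minus that at single promoters was -0.06 (p = 0.67 by the same exact test). This last value was near 0 without ATRA replicate 2 (-0.0015) or control replicate 1 (-0.0057), and -0.13 and -0.12 without ATRA replicate 1 and control replicate 2. Pair by pair, among those with a peak in all 4 libraries, the median log2 ratio of mean widths was 0.17 for H3K4me3 (785 pairs), the same as over all 9466 such promoter regions, and 0.32 for H3K27ac (576 pairs) against 0.38 over all 6076.

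H3K4me3 was wider in both ATRA than in both control libraries at 354 of 785 pairs (45.1%) and narrower at 27 (3.44%), against 41.5% and 4.8% of all promoter regions. H3K27ac was wider at 200 of 576 pairs (34.7%) and narrower at 22 (3.82%), against 36.8% and 4.97%. These shares were close to the background for both marks. With 1 library left out, fewer libraries have to meet the condition, so the counts can only stay or rise. Without control replicate 1 the H3K4me3 counts were 593 wider and 48 narrower, and without control replicate 2 395 and 160. Without ATRA replicate 1 they were 477 and 92, and without ATRA replicate 2 479 and 86. For H3K27ac, leaving out 1 library gave 268 to 383 wider, the highest without control replicate 2 and 357 without ATRA replicate 1, and 64 to 127 narrower. With only peaks of -log10 q of at least 5, 1 pair was wider and 0 narrower for H3K27ac. Measured as bases of the region under peaks, H3K4me3 was wider at 14 pairs and narrower at 3. Most H3K4me3 peaks exceed the region, so this measure can seldom differ between libraries and does not test their width. Within replicate number (a replicate block), 457 pairs were wider and 61 narrower for H3K4me3, and 321 wider and 63 narrower for H3K27ac. The background shares above belong to the first counts of this paragraph and are not given for the other settings. The ATRA libraries had the larger total peak length, and its part in the wider and narrower counts was not tested.

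**Figure D5:**
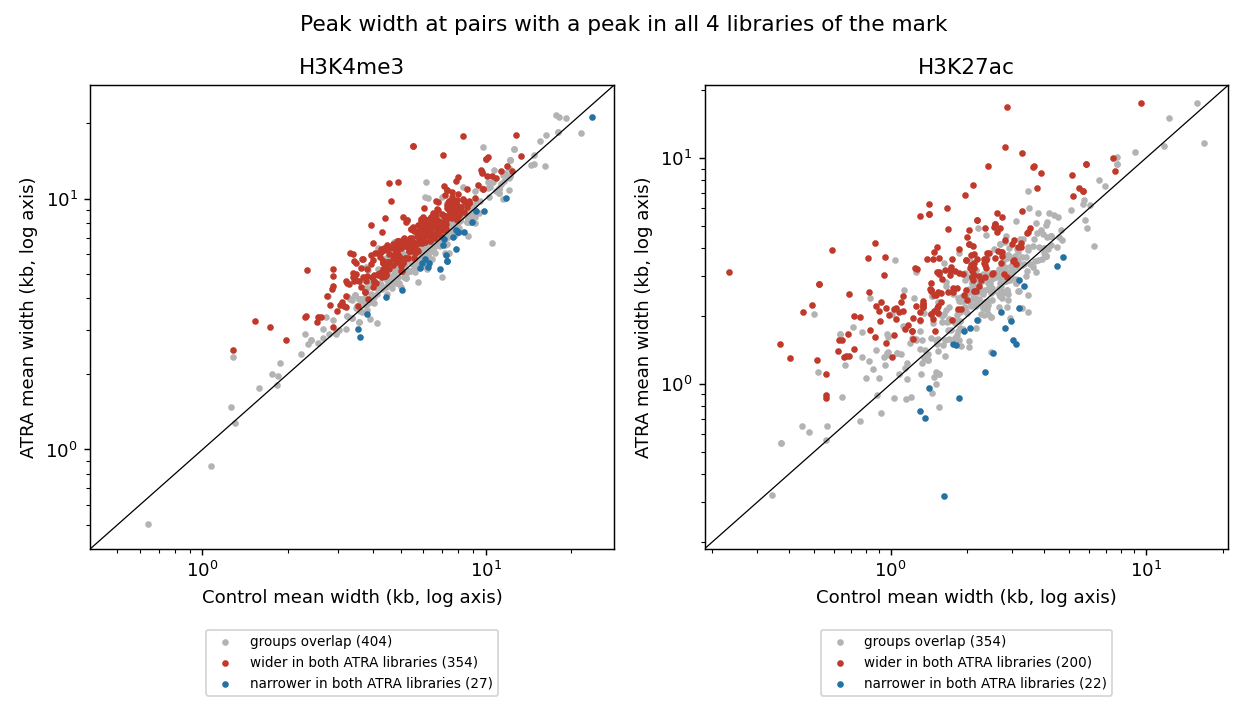
Mean peak width (kb, log axes) in the 2 ATRA against the 2 control libraries for each pair with a peak in all 4 libraries of the mark; colors mark pairs whose widths do not overlap between conditions and the line marks equal width. For H3K4me3 354 pairs are wider and 27 narrower in ATRA, for H3K27ac 200 and 22.

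Among H3K4me3 peaks that were wider in ATRA, 2 of the 5 pairs with the largest ratio, ZNF891/ZNF10 and a second pair of ZNF891, shared the same peak, which measured 6743 and 25574 bp in ATRA and 5346 and 5739 bp in control. JMJD6/METTL23 had 18200 and 4887 bp against 4636 and 4436 bp, and POLR3GL/ANKRD34A had 15618 and 7582 bp against 6127 and 3667 bp. In these pairs 1 ATRA library carried most of the ratio. ZNF697/PHGDH was even between replicates, with 5106 and 5241 bp in ATRA and 2868 and 1823 bp in control; PHGDH encodes the first enzyme of serine synthesis, and the pair had no H3K27ac in any library.

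The pairs with the largest narrowing of H3K4me3 included CAPG/SH2D6, POLR2L/TSPAN4 and ALG3 with either EEF1AKMT4 or its read-through gene. POLR2L/TSPAN4, the first a subunit of RNA polymerase II, had 6834 and 5714 bp in ATRA and 7504 and 8188 bp in control. CAPG/SH2D6, the first an actin-capping protein, had 3335 and 2282 bp in ATRA and 3646 and 3529 bp in control, while its H3K27ac peaks measured 2799 and 4692 bp in ATRA and 1422 and 2696 bp in control. At CAPG/SH2D6 the marks thus moved apart.

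For H3K27ac, the pairs with the largest widening were ARFRP1/ENSG00000273154, ATG2B/GSKIP, ALS2CL/TMIE and CFAP210 with either PHOSPHO2 or KLHL23. ATG2B/GSKIP, an autophagy protein and a regulator of GSK3, had 2993 and 4864 bp in ATRA and 785 and 389 bp in control. ALS2CL/TMIE had 27054 and 6672 bp in ATRA and 2864 and 2831 bp in control, with no H3K4me3. CFAP210/PHOSPHO2 had 2394 and 3182 bp in ATRA and 485 and 566 bp in control. Every ATRA value exceeded every control value in these pairs, as the selection requires.

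The largest H3K27ac narrowing was at C10orf88/PSTK, TUBD1/RPS6KB1, HDAC3/RELL2, GLMN/RPAP2 and STK32C/LRRC27. HDAC3/RELL2, the first a histone deacetylase, had 1487 and 769 bp in ATRA and 3162 and 1516 bp in control. TUBD1/RPS6KB1, the second the S6 kinase of the mTOR pathway, had 611 and 1122 bp against 1350 and 2361 bp.

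Calls on the 2 sides of a pair did not always coincide. Of 753 pairs with 1 H3K4me3 peak over both ends in all 4 libraries, the peak reached further in both ATRA than in both control libraries on both sides at 121 and on 1 side alone at 333. At 25 of these 333 it was shorter on the other side. Over gene sides, 575 of 1506 (38.2%) were longer and 90 shorter, against 41% and 7.66% of all gene sides of pairs and single promoters. For H3K27ac, 39 of 349 pairs were longer on both sides and 144 on 1 side alone. Over gene sides, 222 of 698 (31.8%) were longer and 39 shorter, against 31.5% and 6.91%. The counts of both sides and of 1 side have no such background and were not tested. A side without a call is not shown to be unchanged.

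Genes of several housekeeping lists were often members. Of all 20098 protein-coding genes used, 8.47% lay in a pair. The share was 27.9% of 136 DNA repair genes, 26.1% of 92 genes of oxidative phosphorylation, 23.6% of 55 chaperones and protein import genes, 21.5% of 79 genes of the mitochondrial ribosome and 20.4% of 93 genes of DNA replication and mitosis. It was 33.8% of 68 replication-dependent histone genes, which lie as H2A and H2B pairs in clusters, 13.5% of 52 proteasome and antigen processing genes and 7.89% of 38 aminoacyl-tRNA synthetases. Of 93 myeloid and immune genes 2 lay in a pair, LCP1 and BTK.

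All 39 pairs with a DNA repair gene and all 18 with a gene of the mitochondrial ribosome had H3K4me3 in all 4 libraries, as did 24 of 25 with a gene of oxidative phosphorylation and 785 of 883 pairs in all. Among pairs with H3K4me3 in all 4 libraries, it was wider in ATRA at 19 of 39 DNA repair pairs, 11 of 18 mitochondrial ribosome pairs, 13 of 24 oxidative phosphorylation pairs and 5 of 18 replication and mitosis pairs, and narrower at 1, 0, 1 and 2 of them, against 41.5% wider and 4.8% narrower over all promoter regions. The median log2 ratio of H3K4me3 width was 0.20, 0.21, 0.17 and 0.04 in these lists, against 0.17 over all promoter regions with a peak in all 4 libraries. Of the pairs with H3K27ac in all 4 libraries, it was wider at 9 of 30, 6 of 14, 4 of 22 and 3 of 12 in the same lists and narrower at 0, 0, 2 and 1, against 36.8% and 4.97% over all promoter regions. H3K27ac was gained at 2 of 39 DNA repair pairs, 1 of 18 mitochondrial ribosome pairs, 0 of 25 oxidative phosphorylation pairs and 1 of 19 replication and mitosis pairs. The share gained over all promoter regions was 2.54%. It was lost at no pair of the 9 lists, against 0.28% of all promoter regions. These counts are too small to be read against the background.

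The 14 pairs with chaperones or protein import genes had H3K4me3 in all 4 libraries at 13, wider in ATRA at 4 of these and narrower at 1 (41.5% and 4.8% over all promoter regions). H3K27ac was in all 4 libraries at 13 as well, wider at 7 and narrower at 0 (36.8% and 4.97% over all). The 7 pairs with proteasome or antigen processing genes all had H3K4me3 in all 4 libraries, wider at 3 and narrower at 2. The 3 pairs of aminoacyl-tRNA synthetases had both marks in all 8 libraries, with H3K4me3 wider or narrower at 0 and H3K27ac wider at 2. These lists are too short for their shares to be read against the background.

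Histone genes are near-identical copies, and how reads with several matches were handled is not given in the sources used here. Of 12 histone pairs 9 had H3K4me3 in all 4 libraries, 5 of them wider in ATRA (41.5% over all promoter regions), and no H3K27ac width separated the conditions. H2AC1/H2BC1, the testis-specific pair, and H3C7/H2BC9 had no peak of either mark. H2AC14/H2BC14 had no H3K4me3 but H3K27ac peaks of 5310 and 11045 bp in ATRA and 11417 bp in control replicate 2. LCP1/LRRC63, whose first gene encodes the actin-bundling protein L-plastin of leukocytes, had H3K4me3 of 5299 and 4464 bp in ATRA and 3922 and 2877 bp in control. BTK/RPL36A, the first the Bruton tyrosine kinase, had H3K27ac of 1590 and 2803 bp in ATRA and 1152 and 1538 bp in control, while its H3K4me3 widths overlapped.

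The 88 pairs without H3K4me3 in any library included close ones. The 6 closest were PTPN3/PALM2AKAP2 (12 bp), PLPP3/PRKAA2 (13 bp), SYNJ2BP/ADAM21 (17 bp), PLCZ1/CAPZA3 (19 bp), CIDEB/LTB4R (20 bp) and MAGEA12/CSAG1 (22 bp). PLCZ1 and CAPZA3 are sperm genes, ADAM21 is expressed in testis, and MAGEA12 and CSAG1 are cancer-testis antigens. Only CIDEB/LTB4R among the 6 carried H3K27ac, in the ATRA libraries described above. Where a gene has several start sites, the outermost annotated 5′ end used here may lie away from the site in use.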

How the data were processed

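ChIP-seq peak files of 8 libraries were analysed, 2 per mark and condition. Per the study's methods, the authors trimmed adapters (cutadapt in the submitters' processing notes), mapped the reads by Bowtie onto hg19, and ran MACS2 in broad mode without its fragment model (human genome size). One deposited file per library was used; whether the input libraries entered the call, and tool versions, are not given in the sources used here. Positions of peaks (0-based starts, converted to 1-based) were used, and the deposited -log10 q-value only as a filter in an alternative. The fold enrichment and -log10 p columns held impossible values and were not used. All peaks lay within GRCh37 chromosome lengths.

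Pairs and single promoters came from GENCODE release 44 lifted to GRCh37; 78 genes and 1 pair on chromosomes Y and M were left out. A gene with a divergent partner whose outermost 5′ end overlaps it by over 1 kb counted as single. A peak counted when it overlapped the region by at least 1 bp, and width was that of the longest such peak. Classes were compared within each library and tested over libraries with exact sign-flip permutation tests; ATRA and control were compared with exact permutation tests of 2 against 2. Gained, lost, wider and narrower promoters were counted beside the share of all promoter regions, without a test. Scripts ran under Python 3.11.15 with pandas 2.3.3 and numpy 2.4.6, and peak readouts were checked on simulated peaks.

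Named pairs were the textbook pairs, the 5 widest per mark, up to 8 gained or lost, the 5 with the largest width ratio per direction whose widths do not overlap, the 6 closest without H3K4me3, and 3 pairs on each side of 1 kb; the histone, LCP1 and BTK pairs were chosen after their values were seen. Some pairs that this rule names are not reported here. The members, gene lists and tests were chosen with earlier results of these data known. Alternatives were another region, overlap, peak threshold, width measure, single class and CpG limit, 1 pair per locus, a replicate block and each library left out.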

Additional observations from a re-analysis of the deposited data

How the results depend on the processing

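Of 215 recomputed values, 170 kept their direction and their side of the threshold, or stayed within the allowed change for shares and counts. Another 40 moved beyond the allowed change and 5 reversed direction. Tests of 1 mark alone and of ATRA against control cannot reach a p under 0.05. Their side of the threshold was therefore fixed in advance, and the 170 do not measure robustness. The differences between pairs and single promoters kept their direction under every alternative, in share and in width, and over both marks together their exact p stayed under 0.05. H3K4me3 width counted as bases of the region is capped by region length, which is larger at pairs, so its direction says little about peaks. Leaving out 1 library changed the H3K4me3 difference in share between ATRA and control at pairs over a range from -0.40 to 0.28 percentage points, the same minus single promoters from -1.46 to 0.12, and the log2 width difference minus single promoters from -0.040 to 0.022, so these had no stable sign. Counts can only stay or rise when 1 library is left out, because fewer libraries have to meet the condition. For H3K4me3 they then ranged from 0 to 1 gained, 0 to 2 lost, 395 to 593 wider and 48 to 160 narrower pairs. For H3K27ac they ranged from 31 to 76 gained, 1 to 8 lost, 268 to 383 wider and 64 to 127 narrower. With -log10 q of at least 5, H3K4me3 was lost at 2 pairs and lay in 1 peak over both ends at 82.7%; for H3K27ac 14 pairs were gained, 9 lost, 1 wider and 0 narrower, and 8.41% had 1 peak over both ends. Requiring 500 bp under peaks gave 4 lost H3K27ac pairs. Counting bases of the region under peaks gave 14 wider and 3 narrower for H3K4me3, whose peaks mostly exceed the region, so that this measure can seldom differ.

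Replicate numbers are shared between conditions, but the labels do not say what a number marks. For each mark, the peak names carry a tag that the ATRA and control libraries of one number share; its meaning is not given in the sources used here, and a shared experiment was not tested. Deviations of same-numbered libraries from their group means correlated at 0.16 for H3K4me3 and 0.38 for H3K27ac over 19278 regions. Compared within replicate number (a replicate block), the mean count per number was 2 gained and 2.5 lost for H3K4me3 and 77 gained and 13 lost for H3K27ac. In this block 457 pairs were wider and 61 narrower for H3K4me3, and 321 wider and 63 narrower for H3K27ac. No share over all promoter regions stands beside these block counts. For differences between conditions the block leaves the value unchanged by construction, so these recomputed values could not change direction. Regions outside the CpG limit were an alternative chosen after seeing the data.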
